A study of Mus musculus with 34 samples.

Results

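Annexins and S100 proteins are small families of calcium-binding proteins that work at membranes and outside the cell. Annexins dock onto negatively charged phospholipids when calcium rises, and several of them pair with an S100 partner, annexin A2 with S100A10 and annexin A1 with S100A11. S100A8 and S100A9 form calprotectin, which neutrophils and monocytes release and which signals through the receptors TLR4 and RAGE. In liver, annexin A5, annexin A2 and S100A10 are made by several cell types, while calprotectin marks infiltrating myeloid cells.

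The genes described here are 10 members of these families, Anxa1, Anxa2, Anxa3, Anxa5, S100a4, S100a6, S100a8, S100a9, S100a10 and S100a11, taken as the rows with these symbols in both deposited count tables. The first table held 9 of the 10 among 14436 genes and the second 8 of the 10 among 13817 genes, and 8 were in both. S100a8 was in the first table only, and S100a4, known from fibroblasts and macrophages, was in neither and is not analysed here. The list was chosen by gene symbol, after the levels of these genes over the 8 groups and their differences between the HFD-fed groups were known, so the levels below are a description, and the p-values, which come from fits over all genes, say how a difference compares with the spread between mice and are not independent evidence about the list.

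The data are liver RNA of 34 male mice, 1 library each, from 2 experiments in which feeding began at 8 weeks of age with a high-fat diet (HFD, 60% of energy from fat) or chow (10%) and lasted 3 months. For the second experiment the paper's legends give 3 months for the RNA, while its main text gives 4 months of HFD for these mice. The first compared 5 HFD-fed Bcl2AdTG, 5 HFD-fed WT, 3 chow-fed Bcl2AdTG and 3 chow-fed WT mice. Bcl2AdTG mice carry a Cre-dependent Bcl2 transgene switched on by Adipoq-Cre, which acts in adipocytes, so the liver is not the tissue that was modified, and the Cre status of the WT mice is not stated. The second compared 4 HFD-fed S100a8fl/flCx3cr1Cre, 5 HFD-fed S100a8fl/fl, 5 chow-fed S100a8fl/flCx3cr1Cre and 4 chow-fed S100a8fl/fl mice. All 18 carry floxed S100a8, and Cx3cr1-Cre, which acts in macrophages and other cells of the monocyte lineage, was present in the Cre groups alone. The replicates are separate mice, and in each experiment the controls were littermates of the other genotype, but nothing says which mice came from which litter or cage.

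Total counts ranged from 19639839 to 52395073 per library in the first experiment and from 18628257 to 25462106 in the second. All 8 hepatocyte markers were measured and summed to between 69600 and 126000 CPM (counts of a gene per 1000000 counts of its library, scaled by TMM) in every liver. S100a8 is not analysed here in the second experiment, so the recombination of the floxed gene was not checked. Bcl2 itself was at 8.98 to 14.9 CPM in HFD-fed Bcl2AdTG livers, against 2.72 to 2.94 CPM in 4 HFD-fed WT livers and 21.3 CPM in the library labelled HFD-fed WT mouse 1. On chow it was at 4.17 to 8.44 CPM in Bcl2AdTG and 7.75 to 11.3 CPM in WT livers. Results for HFD-fed WT mice are therefore also given without the library labelled mouse 1. A second library, chow-fed WT mouse 2, stood apart in several of the genes described here, and results for the diet in WT mice are also given without it where that changes them.

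Many S100 genes lie side by side on mouse chromosome 3. On GRCm38 (GENCODE M21), 12 of them fill 184.7 kb from 90511034 to 90695721, S100a1 at one end and S100a9 at the other, with S100a4 (90603771 to 90606045), S100a6 (90612882 to 90624181), S100a8 (90668978 to 90670035) and S100a9 (90692632 to 90695721) among them. S100a11 (93520488 to 93526287) and S100a10 (93555080 to 93564643) are neighbours farther along the same chromosome. The annexin genes are scattered, with Anxa5 on chromosome 3 (36448923 to 36475894), Anxa3 on chromosome 5 (96793339 to 96845966), Anxa2 on chromosome 9 (69453620 to 69491795) and Anxa1 on chromosome 19 (20373428 to 20390944).

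Anxa2, Anxa5 and S100a11 are the members that passed the test in HFD-fed livers of both control genotypes and again in the comparison of Bcl2AdTG with WT on HFD, and their promoters are shown for that reason. Each runs 5′ to 3′ on the gene's own strand, from 250 bases before to 50 bases after the RefSeq start site (GRCm38.p6), with matches to the letters TGANTCA (the AP-1 site, which reads the same on both strands) and TATAAA (the TATA box, searched on both strands) in capitals.
Anxa2, chr9:69453433-69453732, plus strand: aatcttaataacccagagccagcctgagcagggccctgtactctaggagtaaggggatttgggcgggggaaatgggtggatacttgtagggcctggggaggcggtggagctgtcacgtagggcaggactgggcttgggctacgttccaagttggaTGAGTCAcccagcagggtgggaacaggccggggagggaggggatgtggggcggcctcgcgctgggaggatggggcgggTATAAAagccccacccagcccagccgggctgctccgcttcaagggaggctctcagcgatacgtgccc
S100a11, chr3:93520246-93520545, plus strand: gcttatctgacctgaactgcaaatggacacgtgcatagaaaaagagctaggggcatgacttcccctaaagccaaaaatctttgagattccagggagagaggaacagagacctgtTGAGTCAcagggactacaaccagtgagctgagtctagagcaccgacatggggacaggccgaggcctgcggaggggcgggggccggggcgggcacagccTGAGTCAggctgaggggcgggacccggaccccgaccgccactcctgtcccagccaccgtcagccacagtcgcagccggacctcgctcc
Anxa5, chr3:36475838-36476137, minus strand: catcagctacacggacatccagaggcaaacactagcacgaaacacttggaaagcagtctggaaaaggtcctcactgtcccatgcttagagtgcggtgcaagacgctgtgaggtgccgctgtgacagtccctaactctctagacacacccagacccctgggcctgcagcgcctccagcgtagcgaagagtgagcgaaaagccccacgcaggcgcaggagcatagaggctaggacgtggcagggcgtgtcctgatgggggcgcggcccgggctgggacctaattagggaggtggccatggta
The AP-1 letters occur once in the Anxa2 window, 2 times in that of S100a11 and not in that of Anxa5. Of the 10 members, 8 had an entry in the table of promoters (not S100a10 and Anxa3), and 2 of these 8 hold TGANTCA, against 7.81% of all 32851 promoters of the same length. TATAAA was found in 5 of the 8, Anxa1, Anxa2, S100a4, S100a8 and S100a9, against 13.6% of all promoters. Counted from the start site, its first base was at -32 in Anxa1, -31 in S100a4 and -30 in S100a8. In Anxa2 it was at -17 and in S100a9 at 1, the start site itself. Both motifs were chosen after the sequences had been seen, and a match is a run of letters, not a bound site.

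Levels of different genes can be compared only per length, so CPM were divided by the kilobases of exon that GENCODE M21 lists. On that scale S100a10 and Anxa5 held the first and second places in all 8 groups, S100a11 the third and Anxa2 the fourth, and the other members were far below. In HFD-fed S100a8fl/fl livers S100a10 was at 143 ± 34.2 and Anxa5 at 143 ± 44.6 CPM per kb (SD, n = 5), a difference well inside their spread. S100a11 was at 44.4 ± 20.3 and Anxa2 at 29.6 ± 7.75 CPM per kb there. Their ranges over the mice overlapped (27.7 to 78.4 and 22.3 to 42.5 CPM per kb), while the mean of S100a11 was the higher one in all 8 groups. The SDs here are spreads between mice, and genes measured in the same livers were not compared within each liver, so they do not test the order of genes. S100a6, Anxa1, S100a9 and Anxa3 lay at 2.88 ± 0.731, 2.34 ± 0.3, 1.84 ± 0.543 and 1.68 ± 0.374 CPM per kb, each within the spread of its neighbour. In HFD-fed WT livers the lowest was S100a8, at 0.961 ± 0.29 CPM per kb (SD, n = 5).

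With HFD every measured member rose in S100a8fl/fl livers and 3 of 9 in WT livers. In the second experiment all 8 members were higher in HFD-fed than in chow-fed S100a8fl/fl livers, where 14.5% of all genes tested were higher (edgeR's quasi-likelihood test, adjusted p under 0.05). Their median log2 fold change was 1.69, against -0.01 over all genes. In the first experiment Anxa2, Anxa5 and S100a11 were higher in HFD-fed than in chow-fed WT livers and no member was lower, where 8.4% of all genes tested were higher and 6.98% lower, and the median was 0.51 against -0.02. Of 10 measured clock genes 4 were higher and 2 lower on HFD in WT livers, and 0 were higher and 3 lower in S100a8fl/fl livers. In either direction 15.4% of all genes tested were called in WT and 27.5% in S100a8fl/fl livers, so the second count is near the share of all genes. Dbp, a clock output gene, was at 24.9 to 34.7 CPM in HFD-fed and 0.493 to 1.4 CPM in chow-fed WT livers, and at 69.4 to 147 CPM in HFD-fed and 78.8 to 149 CPM in chow-fed S100a8fl/fl livers. Their part in the members' levels was not tested.

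The largest response was that of Anxa2, whose protein links membranes to the actin cortex and, with S100A10, binds plasminogen at the cell surface. It was at 158, 83.3, 114, 98.9 and 97.4 CPM in HFD-fed S100a8fl/fl livers, against 10.7, 16.6, 9.48 and 8.21 CPM in chow-fed ones. In WT livers it was at 79.6, 63.7, 79.7, 77.7 and 130 CPM on HFD, against 12.1, 20.5 and 11.6 CPM on chow. Every HFD-fed liver of both control genotypes was above every chow-fed one, by a wide margin. The log2 fold change was 3.30 in S100a8fl/fl mice (standard error, SE, 0.25, adjusted p = 1.14e-07 by edgeR, rank 5 of 13817 genes by p) and 2.55 in WT mice (SE 0.36, adjusted p = 0.000245).

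Anxa5, whose product binds the phosphatidylserine exposed on dying cells, rose in both control genotypes. It was at 387, 175, 246, 220 and 240 CPM in HFD-fed S100a8fl/fl livers, against 79.3, 95.4, 74.7 and 68.6 CPM in chow-fed ones. In WT livers the values were 181, 142, 227, 230 and 324 CPM on HFD, against 65.5, 104 and 68.9 CPM on chow. The groups did not overlap in either experiment, and the log2 fold changes were close, 1.67 (SE 0.20, adjusted p = 1.01e-05 by edgeR) in S100a8fl/fl and 1.47 (SE 0.23, adjusted p = 0.000555) in WT mice.

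S100a11, which encodes a partner of annexin A1, was more variable. It was at 40, 14.2, 17.2, 17.6 and 24.3 CPM in HFD-fed S100a8fl/fl livers, against 4.41, 7.15, 3.81 and 3.99 CPM in chow-fed ones, a log2 fold change of 2.23 (SE 0.31, adjusted p = 3.76e-05 by edgeR). In WT livers it was at 12.1, 3.83, 7.87, 15 and 21.6 CPM on HFD, against 3.29, 6.21 and 3.73 CPM on chow, a log2 fold change of 1.45 (SE 0.42, adjusted p = 0.0286). One HFD-fed WT liver, mouse 2, lay inside the chow range. With the replicate number as a block, the log2 fold change in WT mice was 1.0 and the adjusted p 0.145, so that call was lost. It was lost too in a fit of the 2 WT groups alone (adjusted p = 0.0869) and without HFD-fed mouse 4 or 5 or chow-fed mouse 1 or 3 (adjusted p up to 0.0977).

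S100a10, the S100 partner of annexin A2 and a member whose protein has lost the ability to bind calcium, had smaller fold changes with HFD than Anxa2. It was at 147 to 246 CPM in HFD-fed S100a8fl/fl livers, against 46.8 to 140 CPM in chow-fed ones (log2 fold change 1.10, adjusted p = 0.00637 by edgeR), and at 110 to 204 CPM in HFD-fed WT livers, against 83.5 to 205 CPM in chow-fed ones (log2 fold change 0.32, adjusted p = 0.571). The counts of the pair within each liver give the same contrast within single libraries. In S100a8fl/fl mice there were 0.566 to 0.698 counts of Anxa2 for each count of S100a10 on HFD, against 0.118 to 0.203 on chow, and in WT mice 0.484 to 0.637 on HFD, against 0.0998 to 0.141 on chow. The ranges were far apart in both, and since each ratio is taken within 1 library it does not depend on how the libraries were scaled.

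**Figure D1:**
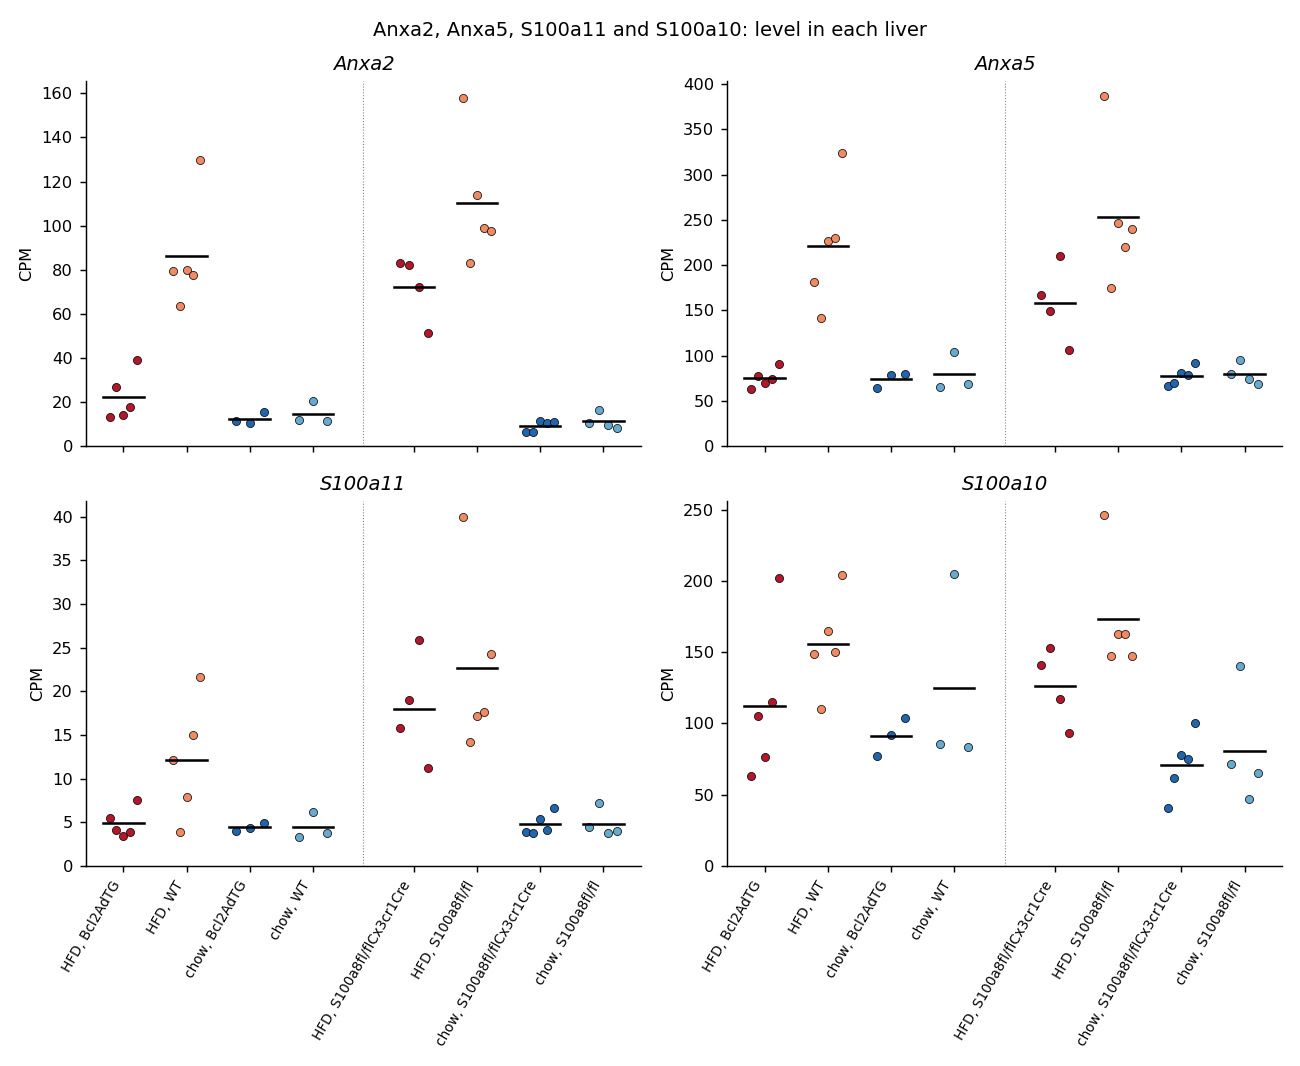
Level of Anxa2, Anxa5, S100a11 and S100a10 in CPM (vertical axes, from 0) in each of the 34 livers, by group, with the first experiment left of the dotted line. Points are mice and bars are group means. HFD-fed control livers are high in Anxa2 and Anxa5, HFD-fed Bcl2AdTG livers lie below every HFD-fed WT liver in both genes, with the Anxa2 of 2 of them, at 26.8 and 39.1 CPM, above all chow-fed livers of that experiment, and the S100a10 ranges of the diets overlap in WT mice.

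Among the members at low levels, Anxa1, which encodes a ligand of formyl peptide receptors, rose with HFD in S100a8fl/fl livers to 6.78, 6.6, 6.42, 8.3 and 6.02 CPM, against 1.81, 2.38, 1.37 and 2.82 CPM on chow (log2 fold change 1.70, SE 0.24, adjusted p = 4.04e-05 by edgeR). Anxa3, another phospholipid-binding annexin, rose there by a log2 fold change of 0.93 (4.09 to 7.4 CPM against 1.6 to 5.1 CPM, adjusted p = 0.00737). S100a6 (calcyclin), which binds the ubiquitin-ligase adaptor CACYBP, rose by 0.80 (3.05 to 5.17 against 1.17 to 3.83 CPM, adjusted p = 0.0275). In the last pair 1 chow-fed mouse reached into the HFD range, and the S100a6 call ended without chow-fed mouse 1, 4 or 5 or HFD-fed mouse 3 or 4, with log2 fold changes of 0.58 to 1.15 over all single libraries left out, and in a fit of the 2 S100a8fl/fl groups alone (adjusted p = 0.0896).

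In WT livers Anxa1, Anxa3 and S100a6 did not pass the test. Anxa1 was at 6.09 to 7.59 CPM on HFD, above the 2.88 to 5.84 CPM on chow (log2 fold change 0.51, adjusted p = 0.0955 by edgeR), and Anxa3 had a log2 fold change of 0.61 (adjusted p = 0.0926). S100a6 was at 1.83 to 2.88 CPM on HFD, against 0.72, 4.4 and 1.07 CPM on chow, the high value being that of mouse 2. This mouse was the highest of the 3 chow-fed WT livers in all 9 members. It was singled out by its levels in these same genes, so leaving it out lowers their chow levels, and the added calls are no independent support. Without it 6 of 9 members were higher on HFD, Anxa1 (log2 fold change 0.71, adjusted p = 0.0478), Anxa3 (0.92, adjusted p = 0.0262) and S100a6 (1.46, adjusted p = 0.0172) in addition. In that fit 1623 genes were called in either direction, against 2220 with all libraries. Without it and the library labelled HFD-fed WT mouse 1, a setting chosen after seeing the data, 5 of 9 members were higher, with 1563 genes called. Without the library labelled HFD-fed WT mouse 1 alone the same 3 members as with all libraries were higher, Anxa2 by 2.59, Anxa5 by 1.55 and S100a11 by 1.47 on the log2 scale.

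The calprotectin genes were at the lower limit of these libraries. S100a8 had 12 to 42 counts in HFD-fed WT libraries, against 12 to 28 counts in chow-fed ones, or 0.565, 0.399, 0.752, 0.682 and 0.936 CPM on HFD, against 0.651, 1.15 and 0.581 CPM on chow. The ranges overlapped and the log2 fold change was -0.25 (95% interval -1.05 to 0.54, adjusted p = 0.694 by edgeR), so that a rise of S100a8 with HFD was not detectable in WT livers at this depth. Its partner S100a9 was at 0.989, 0.932, 1.34, 1.32 and 1.87 CPM on HFD, against 0.685, 2.59 and 0.484 CPM on chow (log2 fold change 0.04, adjusted p = 0.97, and 1.12 with an adjusted p of 0.139 without chow-fed mouse 2). In the second experiment S100a9 had 18 to 35 counts in HFD-fed S100a8fl/fl libraries, against 0 to 6 counts in chow-fed ones, which is 1.45, 0.831, 0.775, 0.781 and 0.961 CPM against 0.294, 0, 0.195 and 0 CPM. These groups did not overlap (log2 fold change 2.89, SE 0.75, adjusted p = 0.00806), and the size of the fold rests on a handful of chow counts. Of 10 neutrophil markers only Csf3r, the receptor for the granulocyte growth factor G-CSF, was measured in either table. It was higher on HFD in both control genotypes, at 2.8 to 3.79 CPM in HFD-fed and 1.54 to 2.32 CPM in chow-fed WT livers (log2 fold change 0.87, adjusted p = 0.0287 by edgeR, and 0.101 without chow-fed mouse 2), and at 1.96 to 3.1 CPM in HFD-fed and 0.277 to 1.83 CPM in chow-fed S100a8fl/fl livers (1.08, adjusted p = 0.0262).

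**Figure D2:**
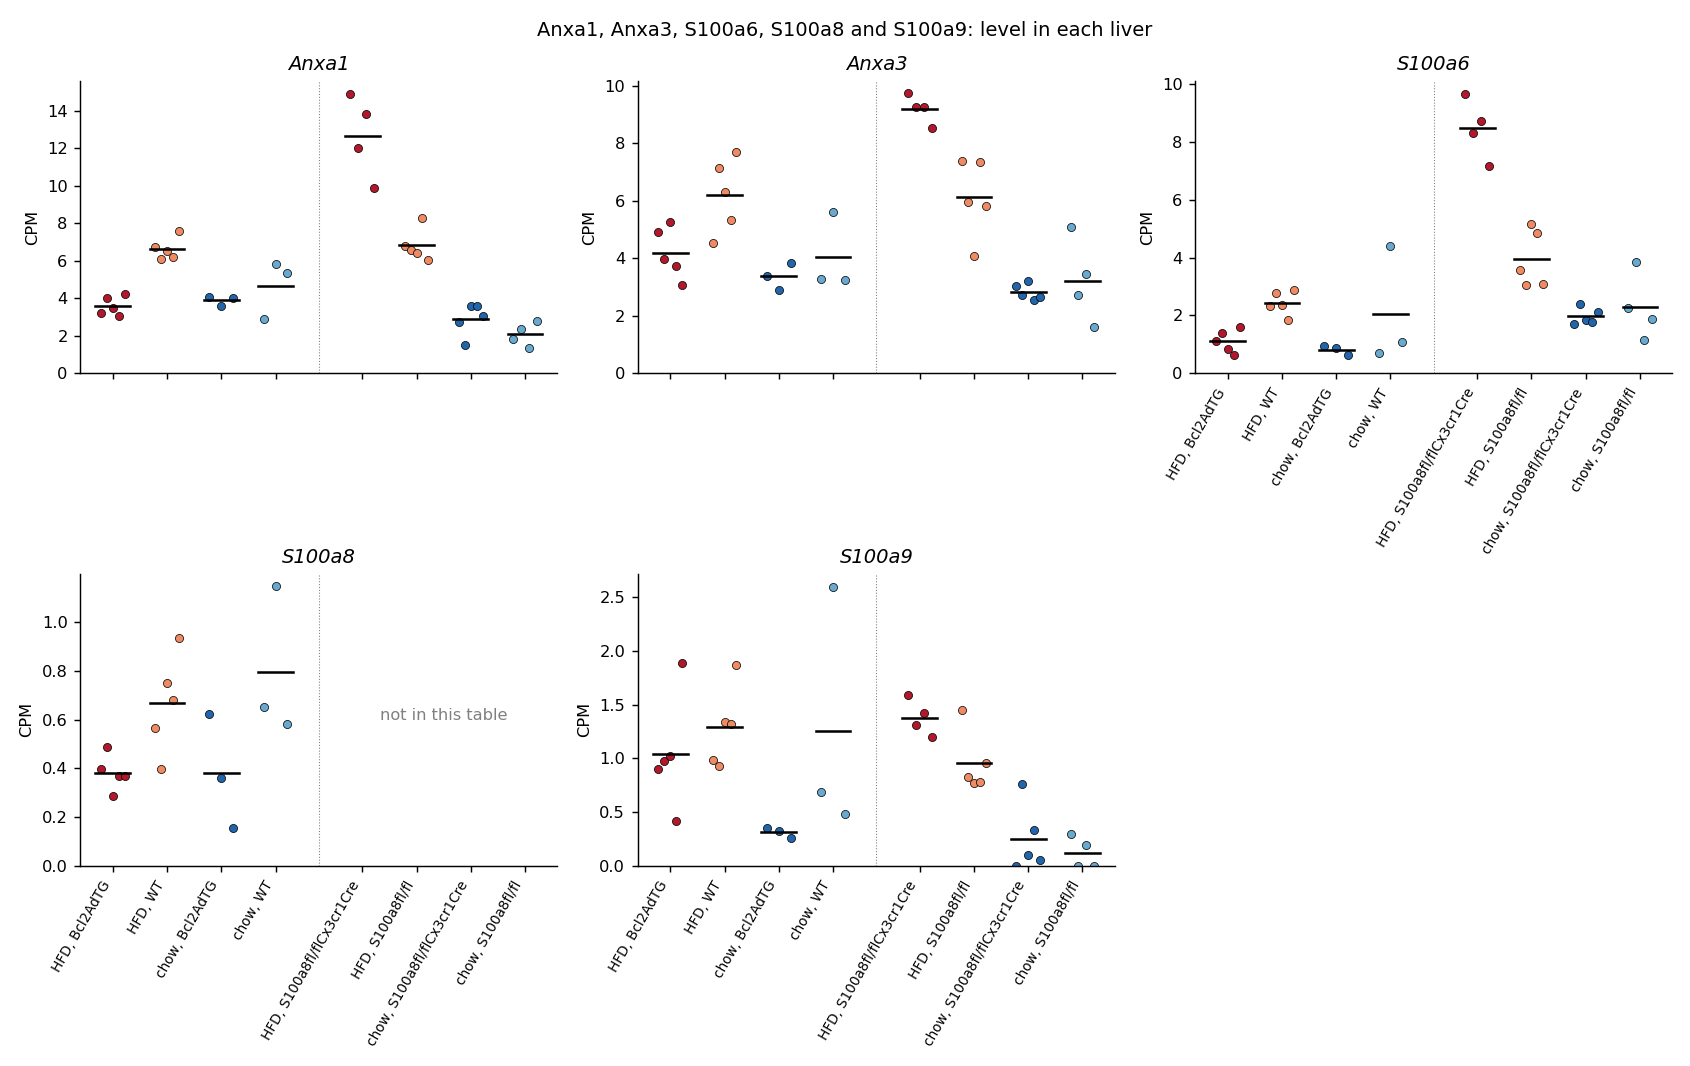
Level of Anxa1, Anxa3, S100a6, S100a8 and S100a9 in CPM (vertical axes, from 0) in each liver, by group, with the first experiment left of the dotted line. Points are mice and bars are group means. Anxa1 and S100a6 are highest in HFD-fed S100a8fl/flCx3cr1Cre livers, chow-fed WT mouse 2 stands above the others of its group in S100a6 and S100a9, and S100a8 is not listed in the second table.

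Markers of other cell types also moved with the diet. Of all genes tested 8.4% were higher and 6.98% lower on HFD in WT livers, and 14.5% were higher and 13% lower in S100a8fl/fl livers. Of 9 macrophage markers 7 were higher on HFD in WT and 6 in S100a8fl/fl livers, and their sum was at 264 to 423 CPM in HFD-fed and 131 to 186 CPM in chow-fed WT livers, and at 224 to 386 CPM in HFD-fed and 116 to 247 CPM in chow-fed S100a8fl/fl livers. Fibroblast and stellate cell markers, 9 of 10 measured in the first table with 4 higher and 10 of 10 in the second with 9 higher, summed to 463 to 619 CPM in HFD-fed and 222 to 336 CPM in chow-fed WT livers, and to 359 to 631 CPM in HFD-fed and 92.8 to 154 CPM in chow-fed S100a8fl/fl livers. Of 8 monocyte-derived markers 5 were higher in WT livers, and 4 of 7 measured for the second experiment in S100a8fl/fl livers, with medians of 1.42 and 1.53 on the log2 scale. Their sum was at 22.6 to 51.8 CPM in HFD-fed and 18.6 to 37.8 CPM in chow-fed WT livers, and at 34 to 61.3 CPM in HFD-fed and 19.9 to 28 CPM in chow-fed S100a8fl/fl livers. Of 8 endothelial markers 3 were higher in WT and 6 in S100a8fl/fl livers, and 2 of 6 measured smooth muscle markers were higher in S100a8fl/fl livers. Lower on HFD were 2 of 8 hepatocyte markers in WT and 3 of 8 in S100a8fl/fl livers. Of the measured cholangiocyte markers 1 of 6 was lower in WT and 1 of 7 higher in S100a8fl/fl livers, counts that do not stand apart from the shares of all genes. Without chow-fed WT mouse 2 the counts in WT livers were 2 macrophage, 5 fibroblast and stellate, 5 monocyte-derived and 3 endothelial markers, and without the library labelled HFD-fed WT mouse 1 they were 7, 4, 5 and 2. Their part in the members' rise was not tested, and in bulk liver RNA more cells of a type cannot be told apart from more RNA in each cell.

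Among the other measured annexin and S100 genes 1 passed the test for HFD in each control genotype. Of all genes tested 8.4% were higher on HFD in WT and 14.5% in S100a8fl/fl livers, and lists this short do not stand apart from those shares. Of 8 other annexins 7 were measured, and 1, Anxa4, was higher on HFD in WT livers (log2 fold change 0.43, adjusted p = 0.0208 by edgeR) and in S100a8fl/fl livers (0.39, adjusted p = 0.0149), with list medians of 0.22 and 0.38. Without chow-fed WT mouse 2 the Anxa4 call in WT livers was lost (0.31, adjusted p = 0.0928) and Anxa7 was called (0.45, adjusted p = 0.047). Anxa6, at 114 to 132 CPM in HFD-fed and 111 to 145 CPM in chow-fed WT livers, had log2 fold changes of 0.00 and 0.12. Of 12 other S100 genes 3 were measured in the first table and 4 in the second, edgeR called 0 in either (1 and 0 at an unadjusted p under 0.05, 0 in both by DESeq2), and their medians were -0.48 in WT and -0.36 in S100a8fl/fl livers. S100a1, S100a13 and S100a16, which share the stretch of chromosome 3 that holds S100a6, S100a8 and S100a9, had negative log2 fold changes in both control genotypes (-0.67 to -0.05). In WT livers the sign rested on chow-fed mouse 2, in which S100a1 was at 171 CPM, against 64.8 to 84.8 CPM in the HFD-fed livers and 68.5 and 78.8 CPM in the other chow-fed ones. Without it S100a1, S100a13 and S100a16 had values of 0.04, -0.03 and 0.27, with a list median of 0.04, and without the library labelled HFD-fed WT mouse 1 the median was -0.45.

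Genes for receptors and partners of these proteins rose in part, where 8.4% of all genes tested were higher on HFD in WT and 14.5% in S100a8fl/fl livers. Of 13 such genes measured for the first experiment 5 were higher on HFD in WT livers and none was lower, and of 12 for the second 6 were higher in S100a8fl/fl livers and none was lower. Plau and Plat encode the urokinase and tissue plasminogen activators, Plaur the urokinase receptor and Plgrkt another plasminogen receptor. They had log2 fold changes of 1.52, 1.49, 1.81 and 0.69 with HFD in WT livers, and of 1.60, 1.90, 1.39 and 0.78 in S100a8fl/fl livers, all past the test. Tlr4, a receptor for calprotectin, rose by 1.34 in WT and 1.91 in S100a8fl/fl livers, and Ahnak, which encodes a scaffold bound by annexin A2 and S100A10, by 0.47 in S100a8fl/fl livers (adjusted p = 0.00134 by edgeR). Without chow-fed WT mouse 2 only Plau (1.70), Plaur (2.52) and Ahnak (0.55, adjusted p = 0.0325) passed in WT livers, and the calls of Plat, Plgrkt and Tlr4 were lost (adjusted p of 0.125, 0.0543 and 0.113). Without the library labelled HFD-fed WT mouse 1 that of Plat alone was lost (1.41, adjusted p = 0.0722). Plg itself, made by hepatocytes, was at 1300 to 1650 CPM in HFD-fed and 1260 to 2180 CPM in chow-fed WT livers.

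Several annexins were lower in livers of HFD-fed mice that carried the adipocyte Bcl2 transgene. Of the 9 members 4, Anxa2, Anxa5, Anxa1 and S100a11, were lower and 0 were higher when Bcl2AdTG livers were set against WT livers on HFD, where 4.29% of all genes tested were lower and 2.42% higher. All 9 log2 fold changes were negative, with a median of -0.88 against 0.01 over all genes. This comparison shares its HFD-fed WT libraries with the comparison of diets in WT mice.

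Anxa2 was at 13.1, 26.8, 14, 17.6 and 39.1 CPM in HFD-fed Bcl2AdTG livers, against the 63.7 to 130 CPM of HFD-fed WT livers given above (log2 fold change -1.96, SE 0.29, adjusted p = 0.00139 by edgeR). Anxa5 was at 63.2, 77.4, 70.2, 73.8 and 90.5 CPM, against 142 to 324 CPM (log2 fold change -1.56, SE 0.19, adjusted p = 0.000549, rank 9 of 14436 genes by p). Anxa1 was at 3.24, 4.04, 3.48, 3.05 and 4.23 CPM in HFD-fed Bcl2AdTG livers, against 6.76, 6.09, 6.54, 6.22 and 7.59 CPM in HFD-fed WT livers (difference -0.88 as log2 fold change, SE 0.17, adjusted p = 0.00661). In these 3 annexins every Bcl2AdTG liver was below every WT liver, and the calls held with each single library left out. Without the library labelled HFD-fed WT mouse 1 the log2 fold changes were -2.0, -1.64 and -0.89, and 4 members were called as before.

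S100a11 was at 5.53, 4.09, 3.43, 3.93 and 7.5 CPM in HFD-fed Bcl2AdTG livers, against 3.83 to 21.6 CPM in HFD-fed WT livers, with a log2 fold change of -1.31 (SE 0.35, adjusted p = 0.0337 by edgeR). The groups overlapped, and the call was lost in 6 of 16 fits that left out 1 library, without HFD-fed WT mouse 4 or 5 and without HFD-fed Bcl2AdTG mouse 1, 2, 3 or 5 (adjusted p up to 0.108). It was lost as well in a fit of the 2 HFD-fed groups alone (-1.31, adjusted p = 0.0648). Without the library labelled HFD-fed WT mouse 1 its adjusted p was 0.0498. S100a6 was at 1.12, 1.41, 0.857, 0.648 and 1.61 CPM in HFD-fed Bcl2AdTG livers, all under the 1.83 to 2.88 CPM of HFD-fed WT livers, but did not pass the test over all 4 groups (log2 fold change -1.11, SE 0.39, adjusted p = 0.101). Chow-fed WT mouse 2 enters the spread of that fit, and without it the adjusted p was 0.0114, with the same log2 fold change. S100a6 was also called lower by DESeq2 (adjusted p = 0.0474) and in the fit of the 2 HFD-fed groups alone (adjusted p = 0.0306).

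The remaining members did not pass. Anxa3 had a log2 fold change of -0.55 (95% interval -0.98 to -0.13, adjusted p = 0.116 by edgeR), S100a10 of -0.47 (-1.09 to 0.15, adjusted p = 0.373) and S100a9 of -0.31 (-1.18 to 0.56, adjusted p = 0.702). S100a8 was at 0.399, 0.488, 0.286, 0.37 and 0.368 CPM in HFD-fed Bcl2AdTG livers, against 0.399 to 0.936 CPM in HFD-fed WT livers, which is -0.79 as log2 fold change (-1.51 to -0.08, adjusted p = 0.181). The groups overlapped, Bcl2AdTG mouse 2 at 0.488 CPM lying above WT mouse 2 at 0.399 CPM. With 8 to 19 counts of S100a8 in the Bcl2AdTG libraries, the interval reaches from a small decrease to a large one. There were 1.12 to 5.12 counts of S100a9 for each count of S100a8 in HFD-fed Bcl2AdTG libraries and 1.75 to 2.33 in HFD-fed WT libraries. The ratio of Anxa2 to S100a10 counts was 0.154 to 0.256 in HFD-fed Bcl2AdTG livers, against 0.484 to 0.637 in HFD-fed WT livers, without overlap.

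**Figure D3:**
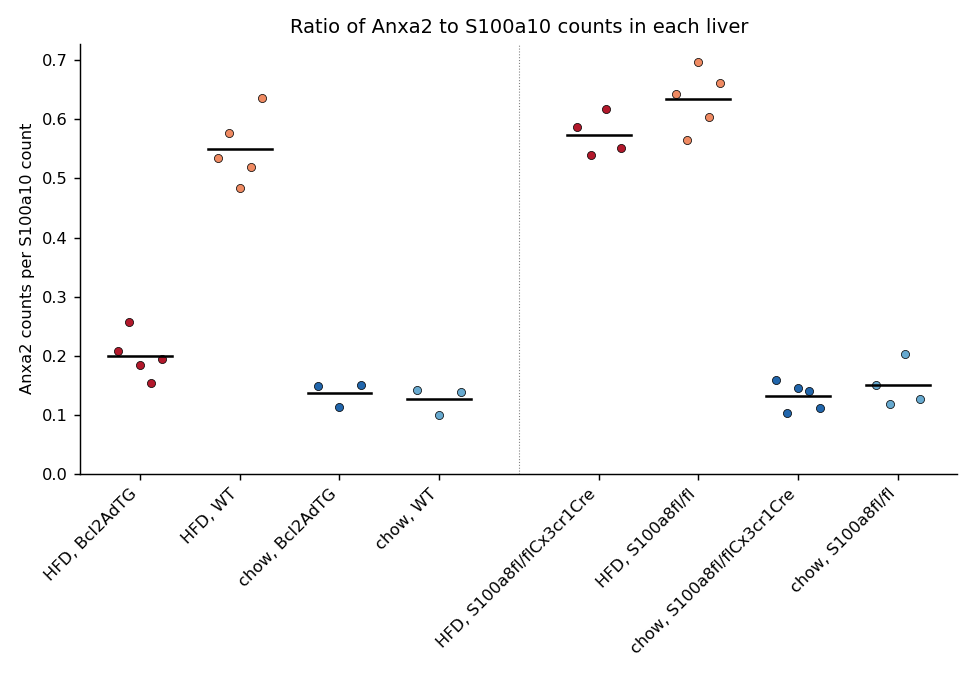
Counts of Anxa2 for each count of S100a10 in each liver (vertical axis, from 0), by group, with the first experiment left of the dotted line. Points are mice and bars are group means. The ratio is at 0.484 or above in HFD-fed WT livers and in every HFD-fed liver of the second experiment, and at 0.256 or below in HFD-fed Bcl2AdTG and all chow-fed livers.

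On chow no member passed the test between Bcl2AdTG and WT livers. In Bcl2AdTG against WT livers 0 of 9 members were called by edgeR (0.152% of all genes tested) and 0 by DESeq2, with 3 at an unadjusted p under 0.05. These were S100a9 (log2 fold change -1.98, adjusted p = 0.379), S100a6 (-1.33, adjusted p = 0.601) and S100a8 (-1.02, adjusted p = 0.641). Without chow-fed WT mouse 2 the S100a9 and S100a6 values were -0.90 and -0.11.

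Within Bcl2AdTG mice no member passed the test for the diet. HFD-fed against chow-fed Bcl2AdTG livers gave 0 calls of 9 with edgeR (2.58% of all genes tested), 2 members at an unadjusted p under 0.05 and 1 call with DESeq2. Anxa5 was at 63.2 to 90.5 CPM on HFD, against 63.9, 78.6 and 80 CPM on chow (log2 fold change 0.02, 95% interval -0.44 to 0.48), and Anxa2 at 13.1 to 39.1 CPM, against 11.5, 10.4 and 15.5 CPM (0.83, adjusted p = 0.233). S100a9 was at 0.904, 0.977, 1.02, 0.417 and 1.89 CPM on HFD, against 0.35, 0.326 and 0.262 CPM on chow, without overlap (1.70, adjusted p = 0.133 by edgeR and 0.0478 by DESeq2).

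The test of the difference itself, the interaction of diet with genotype, was past the threshold for Anxa5 alone among the members (0.485% of all genes tested). Its diet response was lower in Bcl2AdTG than in WT mice by 1.46 on the log2 scale (interaction -1.46, SE 0.31, adjusted p = 0.0479 by edgeR and 0.00179 by DESeq2). That call ended in 13 of 16 fits with 1 library left out, holding only without HFD-fed WT mouse 1 or 2 or HFD-fed Bcl2AdTG mouse 6, though the interaction stayed between -1.70 and -1.28. For Anxa2 the interaction was -1.72 (95% interval -2.70 to -0.73, adjusted p = 0.109 by edgeR and 0.0177 by DESeq2), and for S100a11 it was -1.31 (-2.53 to -0.08, adjusted p = 0.31).

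Between the HFD-fed genotypes of the first experiment, cell type markers moved as well, where 4.29% of all genes tested were lower and 2.42% higher in Bcl2AdTG livers. Of 8 monocyte-derived macrophage markers 5 were lower in Bcl2AdTG livers, with sums of 11.2 to 17.3 CPM against 22.6 to 51.8 CPM in WT livers, and of 9 fibroblast and stellate markers 5 were lower, with sums of 224 to 326 CPM against 463 to 619 CPM. Of 9 general macrophage markers edgeR called 0 (3 at an unadjusted p under 0.05) and DESeq2 1, with sums of 160 to 435 CPM in Bcl2AdTG and 264 to 423 CPM in WT livers. Of 8 endothelial markers 2 were lower in Bcl2AdTG livers, with sums of 115 to 206 CPM against 183 to 216 CPM, and of 8 hepatocyte markers 1 was higher. Csf3r was at 1.62 to 2.96 CPM in Bcl2AdTG livers and 2.8 to 3.79 CPM in WT livers. Dbp was at 34.6 to 106 CPM in HFD-fed Bcl2AdTG and 24.9 to 34.7 CPM in HFD-fed WT livers. Without the library labelled HFD-fed WT mouse 1 the monocyte-derived and fibroblast counts were again 5 and 5, the endothelial count was 2 and the hepatocyte count 0. The part of these in the annexin levels was not tested.

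Of the other annexins (7 measured) and S100 genes (3 measured) edgeR called 0 between the HFD-fed genotypes of the first experiment, with 2 and 0 at an unadjusted p under 0.05, and DESeq2 called 0 of each. The list medians were -0.21 and 0.37. Of 13 receptors and partners 2 were lower in Bcl2AdTG livers, both plasminogen activators. Plau averaged 1.66 ± 0.404 CPM in Bcl2AdTG and 3.76 ± 0.56 CPM in WT livers (± SD over 5 mice each), a difference of -1.17 on the log2 scale (adjusted p = 0.00416 by edgeR). Plat averaged 0.476 ± 0.265 CPM in Bcl2AdTG and 1.92 ± 0.719 CPM in WT livers (log2 fold change -1.95, adjusted p = 0.00782). Without the library labelled HFD-fed WT mouse 1 both remained called (-1.21 and -1.87). Without chow-fed WT mouse 2 Ahnak was called in addition (-0.44, adjusted p = 0.0258).

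**Figure D4:**
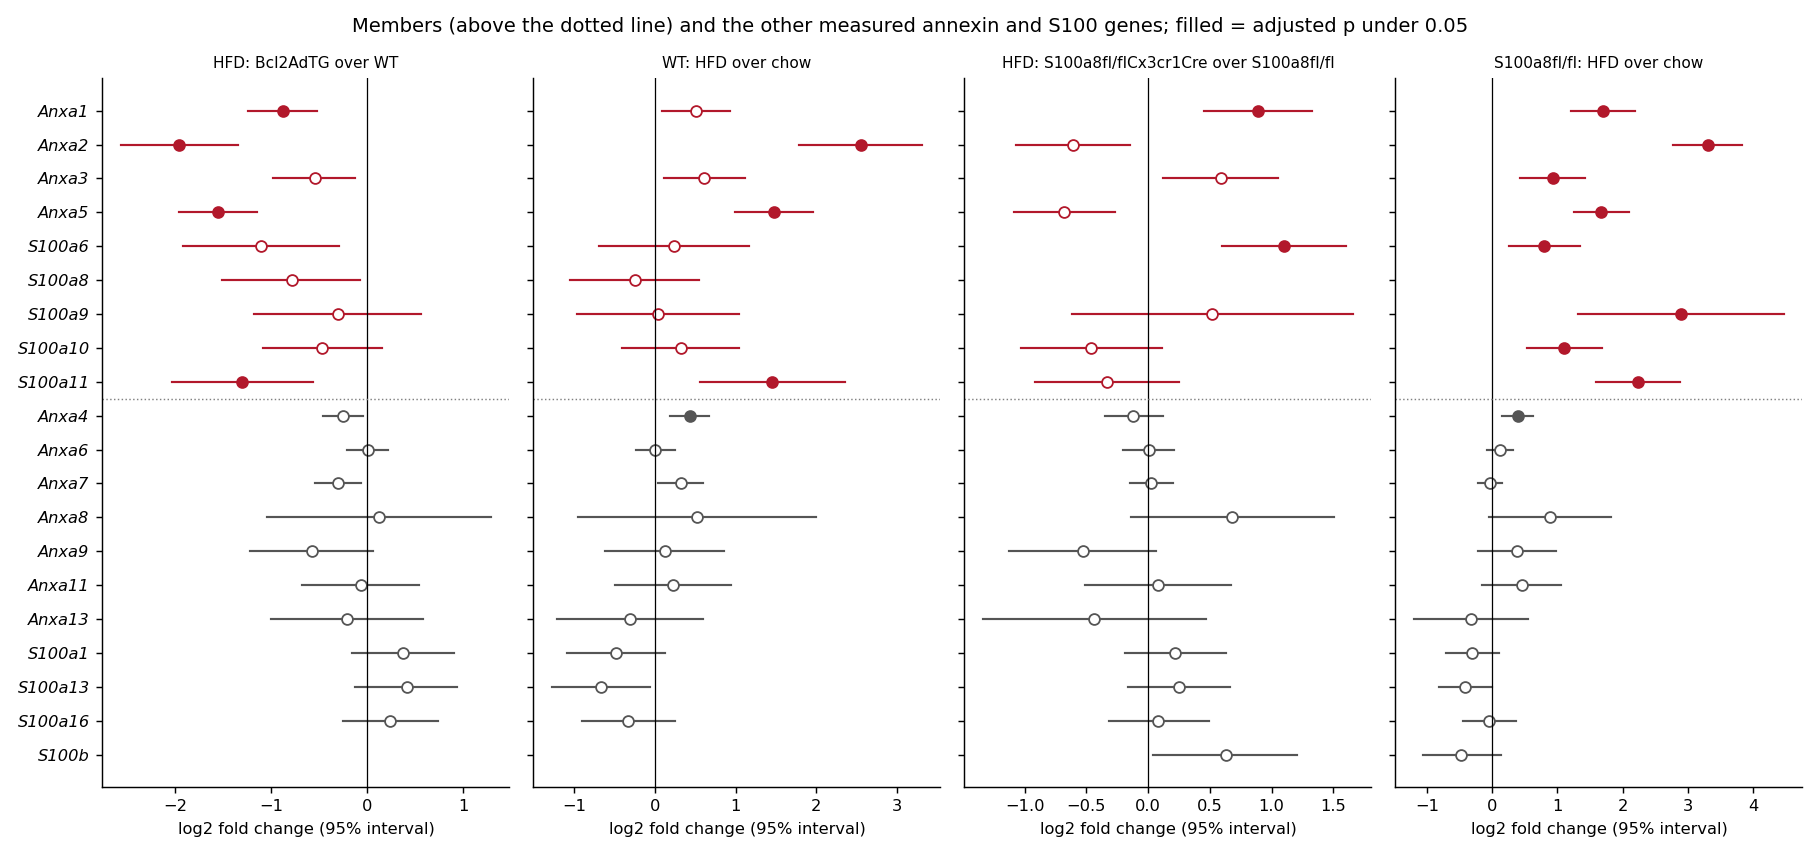
Log2 fold changes (horizontal axes) with 95% intervals by edgeR for the members (red, above the dotted line) and the other measured annexin and S100 genes (grey) in 4 comparisons, filled where the adjusted p was under 0.05. Point estimates of the members lie left of 0 in Bcl2AdTG over WT livers on HFD and right of 0 for the diet in S100a8fl/fl mice, while among the other genes only Anxa4 is filled.

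Between the HFD-fed floxed genotypes, 2 members of low level passed the test. S100a6 and Anxa1 were higher in HFD-fed S100a8fl/flCx3cr1Cre than in HFD-fed S100a8fl/fl livers, 2 of 8 members where 0.854% of all genes tested were higher, and 0 members were lower, against 0.0289% of all genes. S100a6 was at 9.64, 8.31, 8.7 and 7.17 CPM in S100a8fl/flCx3cr1Cre livers, against 3.56, 3.05, 5.17, 4.85 and 3.09 CPM in S100a8fl/fl livers (log2 fold change 1.10, SE 0.24, adjusted p = 0.0258 by edgeR). Anxa1 was at 14.9, 12, 13.8 and 9.86 CPM, against 6.02 to 8.3 CPM (log2 fold change 0.89, SE 0.21, adjusted p = 0.0476). Neither gene's groups overlapped. The S100a6 call ended in 6 of 18 fits with 1 library left out, without S100a8fl/fl mouse 1, 2 or 5 or S100a8fl/flCx3cr1Cre mouse 1, 3 or 4 of the HFD-fed groups (adjusted p up to 0.109), and the Anxa1 call in 11 of 18 (up to 0.198), those without the HFD-fed libraries just named or HFD-fed S100a8fl/fl mouse 3, or without chow-fed S100a8fl/fl mouse 2 or chow-fed S100a8fl/flCx3cr1Cre mouse 1, 3 or 5. The Anxa1 call ended also among genes with a mean of at least 50 counts (adjusted p = 0.0606). Over the single libraries left out the log2 fold changes stayed between 1.01 and 1.21 for S100a6 and between 0.80 and 0.99 for Anxa1.

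The more abundant members had values on the other side of 0, none past the test. Anxa2 was at 83, 82.3, 72.3 and 51.4 CPM in HFD-fed S100a8fl/flCx3cr1Cre livers, all under the 83.3 to 158 CPM of HFD-fed S100a8fl/fl livers (log2 fold change -0.61, 95% interval -1.07 to -0.15, adjusted p = 0.377 by edgeR). Anxa5 was at 167, 149, 210 and 106 CPM, against 175 to 387 CPM (-0.68, 95% interval -1.09 to -0.27, adjusted p = 0.176). S100a10 and S100a11 had log2 fold changes of -0.46 (-1.03 to 0.11) and -0.33 (-0.92 to 0.25). Anxa3 was at 8.54 to 9.76 CPM in S100a8fl/flCx3cr1Cre livers, above the 4.09 to 7.4 CPM of S100a8fl/fl livers without overlap, but did not pass (0.59, adjusted p = 0.425). S100a9, whose product pairs with that of the floxed gene, was at 1.59, 1.31, 1.42 and 1.2 CPM in S100a8fl/flCx3cr1Cre livers, against 0.775 to 1.45 CPM in S100a8fl/fl livers (0.52, 95% interval -0.62 to 1.66, adjusted p = 0.926), from 18 to 38 counts per library.

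Smooth muscle and adipocyte markers stood apart in the same HFD-fed S100a8fl/flCx3cr1Cre livers. Of all genes tested 0.854% were higher there than in HFD-fed S100a8fl/fl livers and 0.0289% lower. Of 6 smooth muscle markers measured (of 8) 4 were higher, with a summed level of 167 to 197 CPM in S100a8fl/flCx3cr1Cre livers against 19.8 to 50 CPM in S100a8fl/fl livers, and of 4 adipocyte markers measured (of 6) 2 were higher, with 72.9 to 151 CPM against 8.23 to 30.6 CPM. Monocyte-derived markers, 7 of 8 measured with 1 higher, summed to 70.9 to 104 CPM against 34 to 61.3 CPM. Of these 7 markers 4 had positive and 3 negative log2 fold changes, with a median of 0.15 and a largest value of 2.20. General macrophage markers summed to 257 to 333 CPM against 224 to 386 CPM. Of 10 fibroblast and stellate markers 2 were higher, the fibroblast genes Pi16 (log2 fold change 3.37) and Dpt (0.91), with sums of 483 to 594 CPM against 359 to 631 CPM, and of 8 endothelial markers 2, Cd34 (1.83) and Pecam1 (0.71), with 149 to 174 CPM against 116 to 179 CPM. Their part in the S100a6 and Anxa1 levels was not tested. Of the other annexins (7 measured) and S100 genes (4 measured) edgeR called 0, with 0 and 1 at an unadjusted p under 0.05, and DESeq2 called 0 of each. Of 12 receptors and partners 1 was higher in HFD-fed S100a8fl/flCx3cr1Cre livers, Ahnak. It was at 32.7 ± 0.625 CPM in S100a8fl/flCx3cr1Cre (SD, n = 4) and 18.5 ± 2.08 CPM in S100a8fl/fl livers (SD, n = 5; log2 fold change 0.82, SE 0.09, adjusted p = 6.38e-05).

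**Figure D5:**
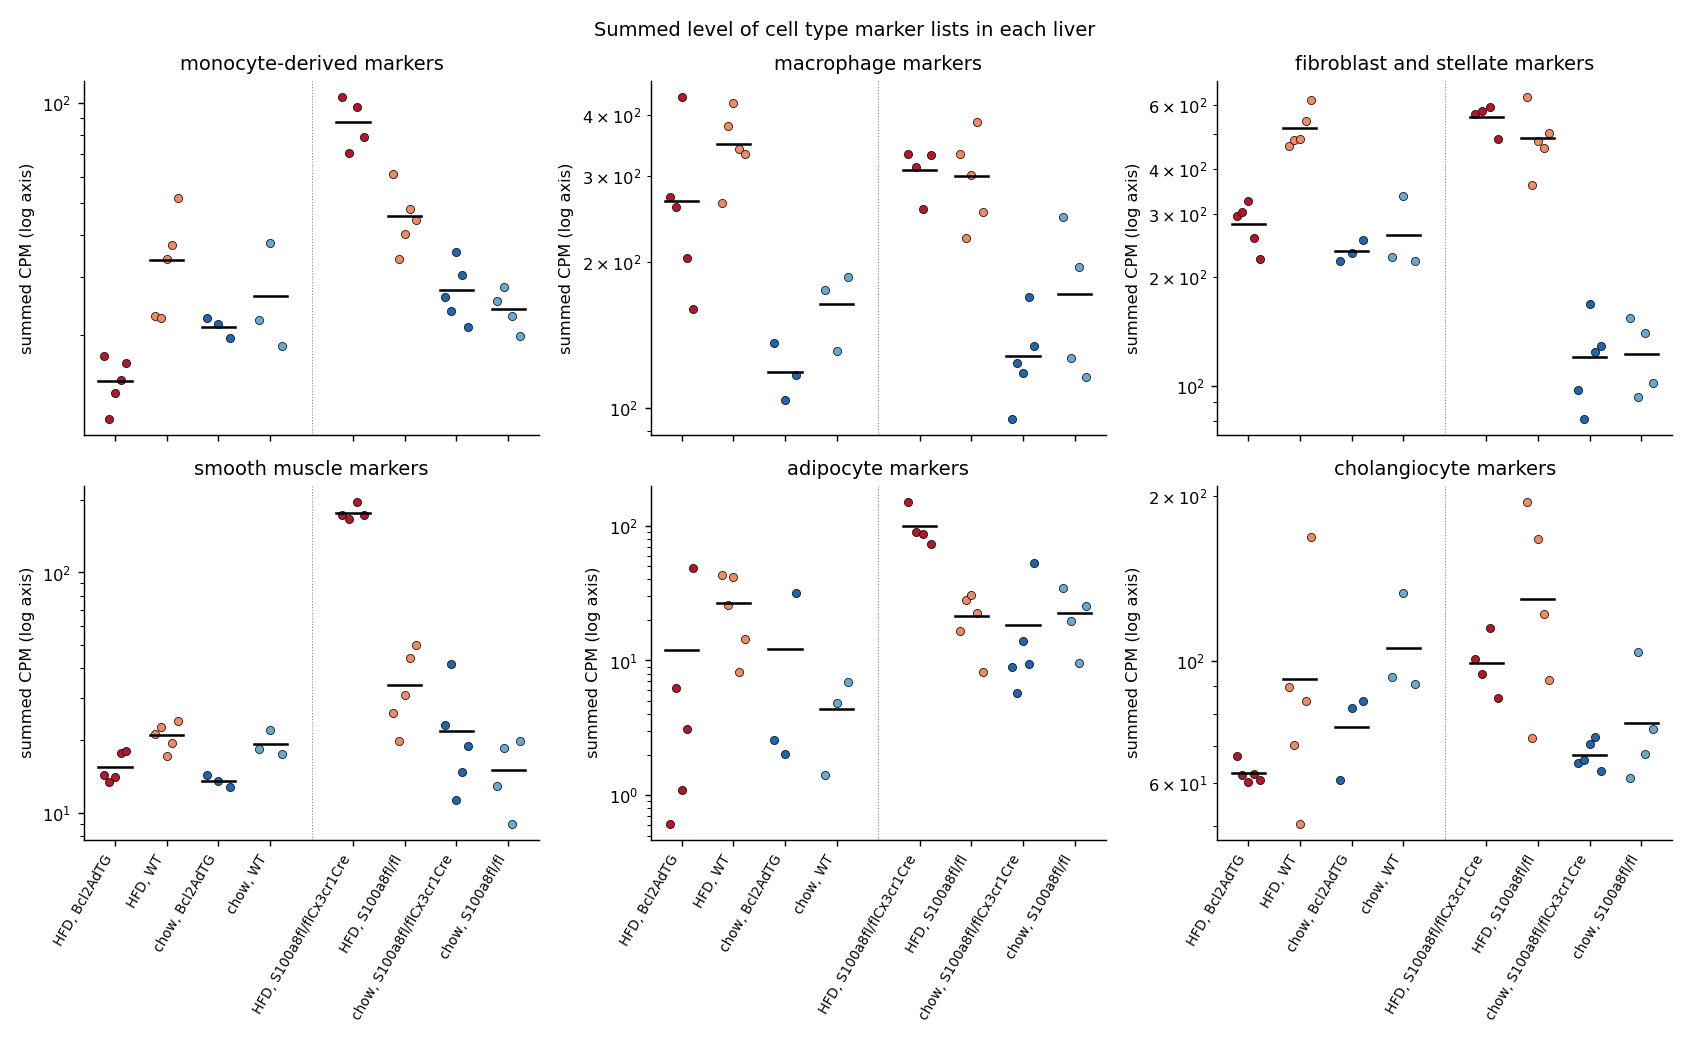
Summed CPM of 6 cell type marker lists (vertical axes, logarithmic) in each liver, by group, with the first experiment left of the dotted line. Points are mice and bars are group means. Smooth muscle markers are at 167 to 197 CPM in HFD-fed S100a8fl/flCx3cr1Cre livers, above all other groups. The sum of monocyte-derived markers is lowest in HFD-fed Bcl2AdTG livers, at 11.2 to 17.3 CPM, and a sum follows its most abundant genes. Of these 8 markers 6 had positive log2 fold changes for HFD over chow in Bcl2AdTG mice (median 0.56, 0 called).

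On chow no member passed the test between the floxed genotypes. There were 0 calls of 8 with edgeR, 0 members at an unadjusted p under 0.05 and 0 calls with DESeq2, where 0% of all 13817 genes were called (775 at an unadjusted p under 0.05, 5 by DESeq2). The log2 fold changes ran from -0.30 for Anxa2 (9.12 ± 2.53 CPM in chow-fed S100a8fl/flCx3cr1Cre, SD, n = 5, and 11.2 ± 3.7 CPM in chow-fed S100a8fl/fl livers, SD, n = 4) to 1.02 for S100a9, whose chow-fed libraries held 0 to 18 and 0 to 6 counts.

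The diet response was also present in mice with Cx3cr1-Cre. In S100a8fl/flCx3cr1Cre mice all 8 members were higher on HFD than on chow, where 16.1% of all genes tested were higher, with log2 fold changes of 0.83 (S100a10) to 2.99 (Anxa2). Anxa2 was at 51.4 to 83 CPM on HFD, against 6.36, 6.37, 11.3, 10.5 and 11.1 CPM on chow (SE 0.24, adjusted p = 4.36e-08 by edgeR), and S100a6 at 7.17 to 9.64 CPM, against 1.69, 2.41, 1.84, 1.78 and 2.12 CPM (log2 fold change 2.10, SE 0.25, adjusted p = 7.16e-06). S100a9 was at 1.2 to 1.59 CPM on HFD, against 0 to 0.76 CPM on chow (2.39, adjusted p = 0.00724). The S100a10 call ended without chow-fed mouse 1 or 2 or HFD-fed mouse 1 or 3 (adjusted p up to 0.0808). The ratio of Anxa2 to S100a10 counts was 0.539 to 0.618 on HFD, against 0.103 to 0.158 on chow. Cell type markers moved in the same comparison, with 10 of 10 fibroblast and stellate, 6 of 6 smooth muscle, 4 of 4 adipocyte, 8 of 9 macrophage, 5 of 7 monocyte-derived and 7 of 8 endothelial markers measured higher on HFD. Smooth muscle markers summed to 167 to 197 CPM on HFD, against 11.3 to 41.4 CPM on chow, and fibroblast and stellate markers to 483 to 594 CPM, against 80.7 to 168 CPM. Their part in the members' levels was not tested.

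Whether the diet response differed between the floxed genotypes was tested as an interaction, and 0 of 8 members passed with edgeR or DESeq2 (0.13% of all genes tested), with 3 at an unadjusted p under 0.05. The largest was that of S100a6, with a response higher by 1.30 on the log2 scale in S100a8fl/flCx3cr1Cre mice (95% interval 0.55 to 2.05, adjusted p = 0.256 by edgeR). Those of Anxa3 and Anxa5 were 0.77 (0.08 to 1.45) and -0.64 (-1.22 to -0.07), both with an adjusted p of 0.715.

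Over the 8 groups, the genes closest to Anxa2 were sought by the root mean square difference of group means of log2 CPM, centred within each experiment. The search covered 12456 other genes with a mean of at least 1 CPM over all livers of each experiment. The 5 closest outside the list were Gm30692, whose symbol was looked up in the reference by its identifier, at 0.21, Cpxm1 (a carboxypeptidase-like secreted protein) at 0.24, Adgrv1 (an adhesion G protein-coupled receptor) at 0.27, Col3a1 (a fibrillar collagen) at 0.28 and H2-Q1 (an MHC class I gene) at 0.30. Col3a1 was at 31.3 ± 8.55 CPM in HFD-fed Bcl2AdTG, 115 ± 16.6 CPM in HFD-fed WT, 124 ± 16.9 CPM in HFD-fed S100a8fl/flCx3cr1Cre and 109 ± 32.5 CPM in HFD-fed S100a8fl/fl livers, and between 13 and 25.8 CPM on average in the 4 chow-fed groups. Among the members S100a11 came nearest, at 0.58 and rank 68, then Anxa5 at 0.74 and rank 166, while S100a10, the protein partner of annexin A2, was at 0.96 and rank 709. The measure rests on 8 group means that share libraries and diet, and is a description. Gm30692 was near the floor in several groups, at 0.225 to 0.583 CPM on average in the chow-fed groups. In HFD-fed Bcl2AdTG livers it was at 0.807 ± 0.74 CPM (SD, n = 5).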

How the data were processed

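Liver RNA of 34 mice was sequenced from poly(A)-selected libraries, 1 per mouse. The authors used Trimmomatic for trimming, HISAT2 for alignment (GRCm38) and featureCounts for counting, and deposited raw read counts per gene, in 1 table per experiment (tool versions and strand or multi-mapping settings are not given in the sources used here). The tables also hold the authors' DESeq2 comparison of the HFD-fed groups (base mean, log2 fold change, its error, statistic, p-values and rank), which was not used. They hold no gene of very low count, and the lowest mean count of a gene was 7.12 in the first table and 8.67 in the second. After keeping 1 row per Ensembl gene, 14436 of 14628 and 13817 of 14030 entries remained, and GENCODE M21 holds 14865 of the 14876 genes that were in either of them.

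The deposited counts were analysed with edgeR 4.0.16 in R 4.3.3 (TMM scaling, filterByExpr, which removed no gene, and the quasi-likelihood test with a mean per group over the 4 groups of an experiment). The p-values were adjusted by Benjamini-Hochberg over all genes of a table, with calls at an adjusted p under 0.05, and measure only the spread between these mice. Standard errors and 95% intervals come from the same fit. Levels are TMM-scaled CPM. The fits were tested on simulated data. Alternatives were RLE scaling, DESeq2 1.42.0, no filter (the same fit, since no gene was removed), a mean of 50 counts, a block for the replicate number, a fit of 2 groups at a time, and each library left out. Values of the related and marker lists without a library were added after seeing the data.

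Named genes were every member, up to 4 called genes of each related list by smallest p, and the 5 genes nearest to Anxa2. Members, lists and marker genes were chosen with earlier results of these data known. Anxa6, Anxa7, Plg, Csf3r, Dbp, Pi16, Dpt, Cd34, Pecam1, S100a1, S100a13 and S100a16 lie outside that rule and were chosen after their values were seen. Among 58 pairs of libraries of the same group, the mean chi-square per gene was at least 12.3, so none was the same library deposited again. Same-numbered HFD-fed and chow-fed WT libraries deviated together in all 3 pairs (correlations 0.13 to 0.15 over genes), and blocked values are given for that comparison where they changed a call. In no other comparison was the correlation above 0.1 in every pair, although it was positive in every pair between the diets in S100a8fl/fl mice (0.05 to 0.19) and between the chow-fed genotypes of the first experiment (0.03 to 0.10). Libraries of unlike number were not compared in this way, so it is not known whether the numbers pair the mice. The block covers the replicate numbers of all 4 groups of an experiment.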

Additional observations from a re-analysis of the deposited data

Results flagged for a closer look

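S100a10, the partner of annexin A2, was at 246 CPM in HFD-fed S100a8fl/fl mouse 1, while the other 4 livers of the group lay between 147 and 163 CPM. On the log2 scale the gap between this liver and the next took up 0.80 of the range of the group, above the critical value of Dixon's test for 5 samples. It was the only 1 of 50 groups of a member that stood out in this way, and chance gives about 1 in 20. The same liver was the highest of its group in Anxa2, Anxa5, S100a11 and S100a9, and narrowly in Anxa3 (7.4 CPM, against 7.35 CPM in mouse 4).

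The diet response of Anxa5 differed between the genotypes of the first experiment by the test of the difference itself, with an interaction of -1.46 on the log2 scale (adjusted p = 0.0479 from edgeR). Anxa5 did not overlap between diets in WT livers, and its ranges overlapped in Bcl2AdTG livers. The call was lost in 13 of 16 fits with 1 library left out.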

How the results depend on the processing

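Leaving out the filter could change nothing, since it had removed no gene. Of 1350 comparisons of a single value of a member with its value under another setting, that one not counted, 1261 kept direction and side of the threshold, 57 lost a call, 15 gained one and 17 turned direction, 0 of them with an adjusted p under 0.05. DESeq2 called more genes than edgeR: 1488 between the HFD-fed and 110 between the chow-fed genotypes of the first experiment, 784 for the diet in Bcl2AdTG mice, 409 for the interaction, and in the second experiment 184 between the HFD-fed genotypes, 5 between the chow-fed ones and 82 for the interaction. It called 1 member for the diet in Bcl2AdTG mice and 2 for the interaction in the first experiment. With the replicate number as a block, counts of genes were 398 (HFD-fed genotypes, first experiment), 36 (chow-fed), 30 (interaction) and 6 (interaction, second experiment), and of members 0 for the interaction of the first experiment and 1 between the HFD-fed genotypes of the second, which a mean of 50 counts also left at 1. In these comparisons, where same-numbered libraries did not deviate together in every pair, the block ended the calls of S100a11 between the HFD-fed genotypes of the first experiment (-1.23, adjusted p = 0.107), of the Anxa5 interaction (-1.48, adjusted p = 0.0647) and of Anxa1 between the HFD-fed floxed genotypes (0.84, adjusted p = 0.209). For the diet in WT mice the correlations of same-numbered libraries were 0.13 to 0.15. There the block changed no call of a member other than that of S100a11 given above. In the block the diet values in Bcl2AdTG mice turned for Anxa5 (-0.17), S100a11 (-0.23) and S100a10 (-0.19). Fitting only the 2 groups gave 1406 genes for the diet in WT mice. Without both libraries that stood apart, chosen after seeing the data, 5 members were called for the diet in WT and 1 in Bcl2AdTG mice, 46 genes for the interaction, and S100a8 was at 0.16 for the diet in WT mice. The causes were not tested.

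Leaving out 1 library gave 497 to 1309 genes between the HFD-fed and 6 to 30 between the chow-fed genotypes of the first experiment, 115 to 574 for the diet in Bcl2AdTG mice (members 0 to 1) and 0 to 175 for the interaction (members 0 to 2). For the diet in WT mice it gave 2 to 6 members. In the second experiment it gave 0 to 2 members between the HFD-fed genotypes, 0 to 2 genes between the chow-fed ones and 0 to 23 for the interaction. The diet values that turned ran in WT mice from -0.18 to 1.46 (S100a6), -0.42 to 0.11 (S100a8) and -0.33 to 1.12 (S100a9), and in Bcl2AdTG mice from -0.08 to 0.07 (Anxa5), -0.06 to 0.24 (S100a11), -0.03 to 0.43 (S100a10) and -0.35 to 0.50 (S100a8). Depth limits S100a8 and S100a9, with 3 to 75 counts per library in the first experiment and 0 to 38 counts of S100a9 in the second.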
